A study of Mus musculus with 24 samples.

Results

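The immediate early genes Fos, Egr1, Junb and Dusp1 were followed through 24 chromatin immunoprecipitation sequencing (ChIP-seq) peak lists from mouse macrophages. Their peaks were all those overlapping 1 of 4 fixed windows of the mm9 genome, namely chr12:86790000-86840000 (Fos), chr18:35000000-35045000 (Egr1), chr8:87480000-87520000 (Junb) and chr17:26620000-26665000 (Dusp1). The windows held 266 of 756484 peaks, with 67 at Fos, 54 at Egr1, 89 at Junb and 56 at Dusp1. The cells were primary bone marrow-derived macrophages of FVB/Hsd mice, used at day 7 of differentiation in culture. All of them had been infected with a retrovirus and put under puromycin. The vector carried a short hairpin RNA against Wdr82 (shWdr82), nothing (empty vector LMP) or a scrambled hairpin. The empty vector was the control for H3K4me3 and H3K27ac, and the scrambled hairpin for H3K4me1, H3K36me3, RNA polymerase II in all its forms (total Pol II) and its elongating form with a phosphate on serine 2 of the tail (Ser2P). Each vector was used untreated and with lipopolysaccharide (LPS), a bacterial cell wall component, at 10 ng/ml. By the sample titles LPS lasted 4 h in the H3K4me3 and H3K27ac libraries and 45 min elsewhere. The treatment protocol names 4 h alone, so the time is uncertain, and LPS effects were not compared across antibodies. Each group had 1 library, so every difference below lacks a replicate check and was not tested. In these bulk samples a peak held by fewer cells and a weaker peak in every cell cannot be told apart.

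Immediate early genes are transcribed within minutes of a stimulus from promoters that are already open, without new protein synthesis, and many of their transcripts are then switched off again quickly. Fos and Junb encode subunits of the AP-1 transcription factor, Egr1 encodes a zinc finger transcription factor, and Dusp1 encodes a phosphatase that inactivates MAP kinases and restrains the macrophage response to LPS. WDR82 is a subunit of the SET1 complexes that methylate lysine 4 of histone H3 and of a phosphatase complex with PNUTS that acts in transcription termination. H3K4me3 marks promoters, H3K27ac active promoters and enhancers, and H3K4me1 regions around promoters and enhancers. H3K36me3 and Ser2P mark transcribed units, Ser2P being the form of Pol II that elongates.

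The sequences just before the gene starts are shown with their matches to short promoter elements. RefSeq's promoter table (build GRCm38.p6) matched 3 of the 4 genes, and 250 bases before each start are printed 5′ to 3′ on the gene's own strand, plus for Fos and minus for Junb and Dusp1. Capitals mark TGACG on either strand, which is the core of the element that binds CREB and related factors. In Fos they also mark the TATA box letters TATAAA.
Fos: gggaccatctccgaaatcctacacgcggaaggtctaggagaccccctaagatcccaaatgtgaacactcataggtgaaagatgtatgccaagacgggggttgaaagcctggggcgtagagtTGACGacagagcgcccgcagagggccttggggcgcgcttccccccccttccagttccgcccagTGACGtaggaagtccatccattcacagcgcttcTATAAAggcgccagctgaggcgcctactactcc
Junb: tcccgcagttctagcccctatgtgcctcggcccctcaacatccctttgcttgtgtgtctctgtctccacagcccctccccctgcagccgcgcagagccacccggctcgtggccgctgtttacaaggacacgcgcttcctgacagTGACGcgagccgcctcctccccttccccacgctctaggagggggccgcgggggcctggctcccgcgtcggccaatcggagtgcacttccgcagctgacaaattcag
Dusp1: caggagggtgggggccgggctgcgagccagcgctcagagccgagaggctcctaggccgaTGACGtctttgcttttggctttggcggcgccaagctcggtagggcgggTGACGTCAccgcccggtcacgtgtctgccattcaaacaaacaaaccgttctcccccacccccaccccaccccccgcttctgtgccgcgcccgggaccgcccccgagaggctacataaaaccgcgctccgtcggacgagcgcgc
TGACG was found in all 3, and in 17.8% of the 32851 promoters of the table searched on both strands over the same length. Fos had 2 matches, 129 to 125 and 66 to 62 bases before the start, and Junb had 1, at 106 to 102. Dusp1 had 3, at 191 to 187, at 143 to 139 and, on the opposite strand, at 140 to 136. The last 2 overlap, which gives the run TGACGTCA. TATAAA was found in Fos, 33 to 28 bases before the start, and in 12.4% of all promoters. CCAAT was found in Junb, 36 to 32 bases before the start (33.8% of all). GGGCGG was found once in Fos and 3 times in Dusp1 (32.7% of all). The CArG box, which binds serum response factor, had no match in the 250 bases printed for the 3 genes and a match in 1.47% of all promoters. Bases farther from the start, and any sequence of Egr1, were not searched. A match is a run of letters and not a measured site.

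The promoter of each gene was taken as the H3K4me3 region, merged over the 4 H3K4me3 lists, nearest to the middle of its window. All 4 genes had an H3K4me3 peak there in all 4 libraries. The regions were wide against the 21626 merged H3K4me3 regions of the genome. The Junb region, chr8:87498480-87505443, spanned 6964 bp, and 99.7% of all regions were at most this wide. The Fos region, chr12:86812611-86817900, spanned 5290 bp (98.7%). The Egr1 region, chr18:35019066-35023040, spanned 3975 bp (96.0%), and the Dusp1 region, chr17:26642897-26646596, spanned 3700 bp (94.7%). Distances are given from the middle of these regions in the direction of the chromosome. No gene annotation of the mm9 build was used, so exons and introns were not assigned, and macrophage marker genes, Wdr82 itself and other early genes were not analysed here. In RefSeq's gene order on GRCm38.p6 the nearest protein-coding genes on either side are Tmed10 and Jdp2 for Fos, Reep2 and Etf1 for Egr1, Prdx2 and Hook2 for Junb, and Neurl1b and Ergic1 for Dusp1.

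Pol II was described by its covered length, the number of bp under peaks within 10000 bp on either side of the promoter's middle. Folds were taken between covered lengths with 500 bp added to each, and a gene was called longer or shorter at a fold of at least 1.5. The same rule was applied at every merged H3K4me3 region with a peak of either library, and the percentage called there is the background. The 2 LPS contrasts and the 2 knockdown contrasts of an antibody share their libraries. Read depth is not given in the sources used here. The total Pol II lists held 32385 (scrambled untreated), 21891 (scrambled LPS), 28497 (shWdr82 untreated) and 22307 (shWdr82 LPS) peaks, and the Ser2P lists 15670, 14420, 16744 and 14870 in the same order. Over the genome the total Pol II peaks covered 112, 89.2, 106 and 94.2 Mb in that order, and the Ser2P peaks 46.0, 44.7, 43.0 and 60.6 Mb. The Ser2P list of shWdr82 LPS cells thus covered the most of the Ser2P lists, without having the most peaks. The part that list length, covered genome and depth have in the differences in covered length was not tested.

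Dusp1 carried the widest Pol II peak in the 4 windows, in shWdr82 cells given LPS. Total Pol II covered 12334 bp in scrambled untreated, 15955 bp in scrambled LPS, 13779 bp in shWdr82 untreated and 20000 bp in shWdr82 LPS cells. The last value is the whole measured length, so it is a floor. In that library total Pol II formed a single peak of 25406 bp, chr17:26632269-26657674, from -12.5 to 12.9 kb, and 1.71% of the peaks of its list were wider. The scrambled LPS library had a peak of 11842 bp from -7.6 to 4.3 kb and an adjoining peak of 4113 bp that ended at 8.4 kb. Both untreated libraries had 3 separate peaks, with the middle one, on the promoter, of 8332 bp in scrambled and 9510 bp in shWdr82 cells. The fold for shWdr82 against scrambled was 1.25 after LPS and 1.11 untreated, and LPS against untreated gave 1.28 in scrambled and 1.44 in shWdr82 cells. With the shWdr82 LPS length at its limit, the folds of 1.25 and 1.44 were the largest the measure allows, so neither contrast could be called. Within 20000 bp on either side both were called longer, with log2 folds of 0.65 for shWdr82 against scrambled after LPS and 0.76 for LPS against untreated in shWdr82 cells. The share of all regions called longer at that distance is given in the closing section for the knockdown contrast, and not for the LPS contrast.

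Ser2P at Dusp1 was longer after LPS with either vector, and in shWdr82 cells it also lay over a second stretch on the other side of the promoter. It covered 3885 bp in scrambled untreated, 9197 bp in scrambled LPS, 4190 bp in shWdr82 untreated and 16560 bp in shWdr82 LPS cells. LPS against untreated gave 2.21-fold in scrambled and 3.64-fold in shWdr82 cells, and shWdr82 against scrambled gave 1.76-fold after LPS and 1.07-fold untreated. The call for shWdr82 against scrambled after LPS was lost within 5000 bp on either side (log2 fold 0.47, against 0.82), where most of the additional peak described next is left out, and at a fold of 2. The peak next to the promoter was alike in both LPS libraries, 9197 bp from -7.9 to 1.3 kb in scrambled and 9863 bp from -7.6 to 2.3 kb in shWdr82 cells. The additional peak, chr17:26648050-26660025, spanned 11976 bp from 3.3 to 15.3 kb and was held by the shWdr82 LPS list alone. H3K36me3 at Dusp1 lay between -4.2 and 0.2 kb in the 4 libraries, and RefSeq places the gene on the minus strand, so the additional peak lay upstream of the gene. The nearest protein-coding gene on that side is Ergic1, whose extent was not placed on mm9 here. It overlapped H3K27ac and H3K4me1 peaks in 4 of 4 libraries each, and H3K4me3 and H3K36me3 peaks in none. Total Pol II peaks covered 28.2% of it in scrambled untreated, 42.4% in scrambled LPS, 30.2% in shWdr82 untreated and 80.4% in shWdr82 LPS cells. Peaks held by 1 Ser2P list alone were frequent, 5266 or 35.4% of the 14870 peaks in the shWdr82 LPS list. Among these 5266, 46 scored at least as high in the authors' peak score as the Dusp1 peak (2716.67) and 84 were at least as wide.

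**Figure D1:**
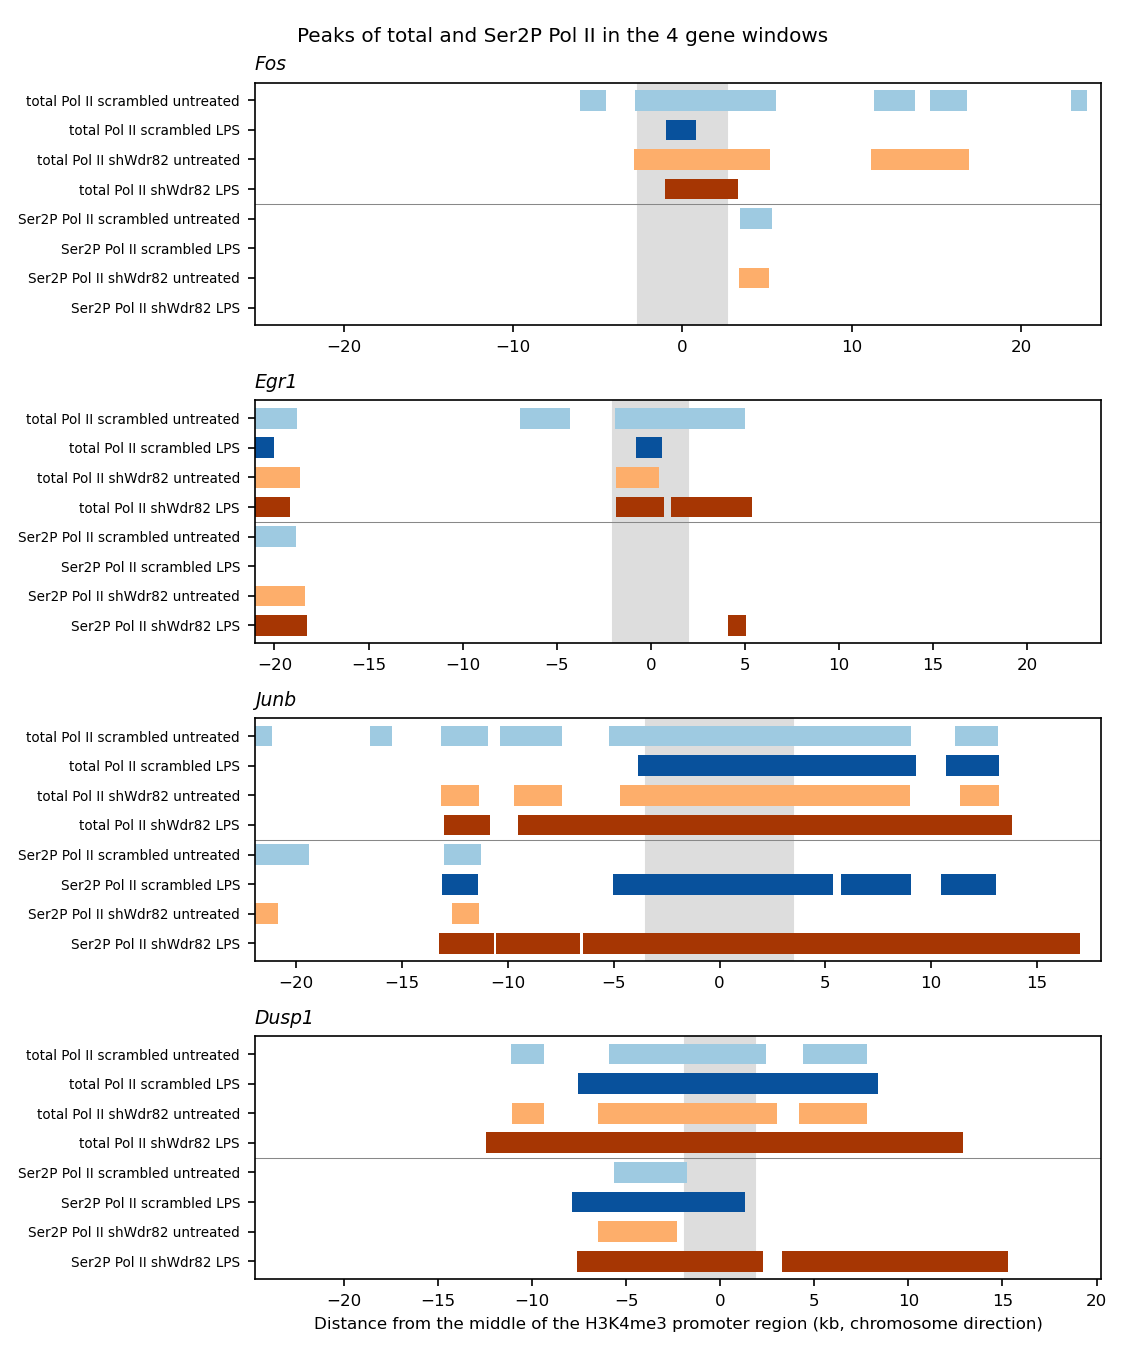
Total Pol II and Ser2P Pol II peaks of each of the 8 libraries (rows, coloured by vector and treatment) at Fos, Egr1, Junb and Dusp1, by distance from the middle of the H3K4me3 promoter region in kb, with that region as a grey band. The Dusp1 Ser2P peak from 3.3 to 15.3 kb is drawn in the shWdr82 LPS row alone, and the Fos Ser2P peaks in the untreated rows alone.

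Junb had Ser2P near its promoter after LPS and none within 10000 bp before it. The covered length was 0 bp in scrambled untreated, 13708 bp in scrambled LPS, 0 bp in shWdr82 untreated and 19847 bp in shWdr82 LPS cells. In scrambled LPS cells this Ser2P was called as peaks of 10398 bp and 3310 bp, followed beyond 10 kb by a peak of 2633 bp. In shWdr82 LPS cells it was called as 1 peak of 23472 bp, chr8:87495532-87519003, from -6.4 to 17.0 kb, and 0.989% of the peaks of that list were wider. A further peak of 3979 bp, from -10.6 to -6.6 kb, was held by the shWdr82 LPS list alone. Next to it, a Ser2P region from -13.2 to -10.6 kb was held by all 4 lists, untreated as well as with LPS. The fold for shWdr82 against scrambled after LPS was 1.43, where 1.44 is the largest that the measure allows, so it could not be called. Within 20000 bp on either side it was called longer (log2 fold 0.72), and the share of all regions called at that distance is not given here.

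Total Pol II at Junb was present in all 4 libraries, before LPS as well as after. It covered 16826 bp in scrambled untreated, 13127 bp in scrambled LPS, 16003 bp in shWdr82 untreated and 19534 bp in shWdr82 LPS cells, the last near the limit of the measure. Its promoter peak spanned 14264, 13127, 13714 and 23366 bp in these libraries, and the last ran from -9.5 to 13.8 kb. In both untreated lists separate peaks that ended at -7.4 kb and at 13.2 kb flanked the promoter peak, and the promoter peak of the shWdr82 LPS list overlapped them. A peak farther out, ending between -11.3 and -10.9 kb, remained separate in all 3 of these lists. RefSeq places Junb on the minus strand, and the Ser2P and total Pol II peaks of shWdr82 LPS cells reached farther on the upstream side of its promoter (17.0 and 13.8 kb) than on the downstream side. The promoter peak of the other total Pol II lists did so too, from -5.2 to 9.0 kb in scrambled untreated, -3.9 to 9.3 kb in scrambled LPS and -4.7 to 9.0 kb in shWdr82 untreated cells, and Ser2P in scrambled LPS cells ran from -5.0 kb to 13.1 kb in 3 peaks. On the upstream side all 4 libraries also held separate H3K4me3 regions, from 6.7 to 8.8 kb and from 11.4 to 13.3 kb. The Pol II peaks that reached there overlapped such regions, and which promoter they belong to was not tested. Hook2 is the nearest protein-coding gene on the upstream side, and its extent was not placed here. The folds for total Pol II were between 1.05 and 1.47 in size in the 4 contrasts, and none was called. The measure allows folds of at most 1.18 to 1.24 in 3 of these contrasts, which therefore could not be called longer. For shWdr82 against scrambled after LPS its limit lay just at the fold for a call, and within 20000 bp on either side this contrast was called longer (log2 fold 0.69). The share of all regions called longer at that distance is given in the closing section.

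Total Pol II at Egr1 differed between the vectors in opposite directions without and with LPS. The covered length was 9570 bp in scrambled untreated, 1412 bp in scrambled LPS, 2325 bp in shWdr82 untreated and 6872 bp in shWdr82 LPS cells. The long values were thus in scrambled untreated and shWdr82 LPS cells, and the order of the vectors turned with treatment. LPS against untreated gave a 5.27-fold shorter length in scrambled cells and a 2.61-fold longer length in shWdr82 cells. The knockdown contrast gave a 3.56-fold shorter length untreated and a 3.86-fold longer length after LPS. On the promoter region the peak spanned 6915 bp from -1.9 to 5.0 kb in scrambled untreated cells, 1412 bp in scrambled LPS and 2325 bp in shWdr82 untreated cells. In shWdr82 LPS cells a peak of 2598 bp on the promoter was followed by one of 4274 bp, chr18:35022153-35026426, that ended at 5.4 kb. The stretch above 1.1 kb on this side therefore had total Pol II peaks in the scrambled untreated and shWdr82 LPS lists only, of the 4.

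Ser2P within 10000 bp of the Egr1 promoter was found in 1 of the 4 libraries. The shWdr82 LPS list held a peak of 949 bp from 4.1 to 5.0 kb, chr18:35025145-35026093, and the scrambled untreated, scrambled LPS and shWdr82 untreated lists held none. The peak was weak for its list, 75.7% of whose peaks scored higher. H3K36me3 was found after LPS with either vector, at 2233 bp in scrambled and 2579 bp in shWdr82 cells, and not in either untreated library. These peaks reached to 3.1 and 3.3 kb, on the same side as the Ser2P peak. At the lower end of the window all 4 libraries also held H3K36me3 peaks of 14183 to 14846 bp, ending between -20.4 and -19.8 kb, which were well apart from the promoter.

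Fos had shorter Pol II coverage after LPS with either vector. Total Pol II covered 9868 bp in scrambled untreated, 1780 bp in scrambled LPS, 7988 bp in shWdr82 untreated and 4350 bp in shWdr82 LPS cells. LPS against untreated gave a 4.55-fold shorter length in scrambled and a 1.75-fold shorter length in shWdr82 cells. After LPS the length was 2.13-fold longer in shWdr82 than in scrambled cells, and untreated it was 1.22-fold shorter, which is below the fold for a call. The scrambled LPS peak lay from -0.9 to 0.8 kb, around the promoter's middle. In shWdr82 LPS cells the peak reached from -1.0 to 3.3 kb, and in both untreated libraries to 5.5 and 5.2 kb. Ser2P covered 1895 bp in scrambled untreated and 1762 bp in shWdr82 untreated cells, from 3.4 kb to 5.3 and 5.1 kb, and 0 bp in both LPS libraries. The shWdr82 untreated Ser2P peak was weak, with a score of 57.58 above a lowest of 50 in that list.

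A second Pol II stretch in the Fos window, chr12:86826409-86832174 from 11.2 to 16.9 kb, had total Pol II peaks in both untreated lists and in neither LPS list. H3K4me3, H3K27ac and H3K4me1 peaks lay on it in 4 of 4 libraries each, and no H3K36me3 or Ser2P peak in any. H3K4me3 covered between 40.9% and 47.5% of it, H3K27ac between 94.9% and 100%, and H3K4me1 between 44.2% and 84.1%.

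**Figure D2:**
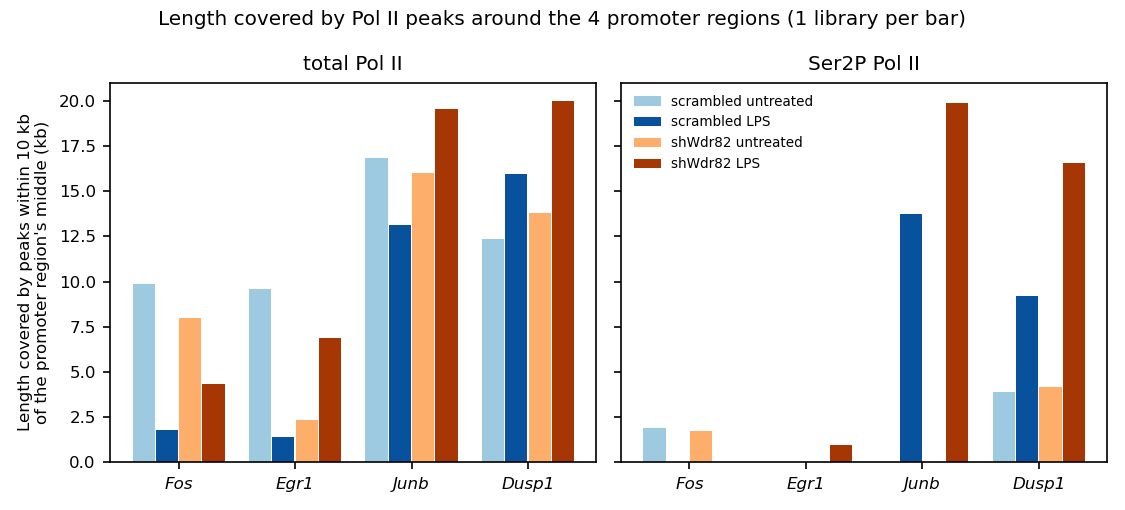
Length covered by total Pol II and Ser2P Pol II peaks within 10 kb of the middle of each promoter region, in kb, with 1 bar per library and no error bar since each group had 1 library. Egr1 total Pol II was longest in scrambled untreated cells (9570 bp) and Dusp1 and Junb Ser2P in shWdr82 LPS cells (16560 and 19847 bp).

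Set against all H3K4me3 regions, the calls for total Pol II were as follows. For LPS against untreated in scrambled cells, 2 of the 4 genes (Fos and Egr1) were shorter, where 45.5% of all tested regions were, and 0 were longer, with a background of 12.0%. In shWdr82 cells, 1 was shorter (Fos, background 46.1%) and 1 was longer (Egr1, background 15.9%). For shWdr82 against scrambled in untreated cells, 1 was shorter (Egr1, background 13.9%) and 0 were longer (background 9.47%). After LPS, 2 were longer (Fos and Egr1, background 15.3%) and 0 were shorter (background 15.5%). A shorter total Pol II length after LPS was therefore common across promoters. The median log2 fold for LPS in scrambled cells was -0.44 over all tested regions and -1.27 over the 4 genes, and in shWdr82 cells it was -0.47 and 0.40. In shWdr82 cells the log2 folds of the genes ran from -0.81 at Fos to 1.38 at Egr1. Those of Junb (0.28) and Dusp1 (0.52) lay near or at the limit of the measure. For shWdr82 against scrambled after LPS the medians were -0.02 over all regions and 0.82 over the 4 genes. Of all tested regions, 4.33% had a fold at least as large as Egr1 in that contrast, 10.2% as Fos, 15.9% as Junb and 21.8% as Dusp1. The covered length limited the folds of Junb and Dusp1 here, as given above. All 4 log2 folds were above 0 in this contrast (1.95, 1.09, 0.56 and 0.32 in the same order). In untreated cells they were -1.83, -0.29, -0.07 and 0.15.

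Ser2P calls for LPS against untreated in scrambled cells were 2 longer (Junb and Dusp1, background 24.2%) and 1 shorter (Fos, background 38.3%). In shWdr82 cells they were 3 longer (Egr1, Junb and Dusp1, background 34.4%) and 1 shorter (Fos, background 31.9%). The Egr1 and Fos calls in shWdr82 cells each rest on 1 weak peak, and both log2 folds were 0.00 with a score of at least 100. For shWdr82 against scrambled in untreated cells 0 were longer (background 17.0%) and 0 were shorter (background 32.2%), and Egr1 and Junb had no Ser2P in either list. After LPS 2 were longer (Egr1 and Dusp1, background 29.4%) and 0 were shorter (background 24.3%), and Fos had no Ser2P in either list. For the Ser2P length at Junb with LPS, 0.416% of the tested regions in scrambled and 0.311% in shWdr82 cells had a fold at least as large.

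**Figure D3:**
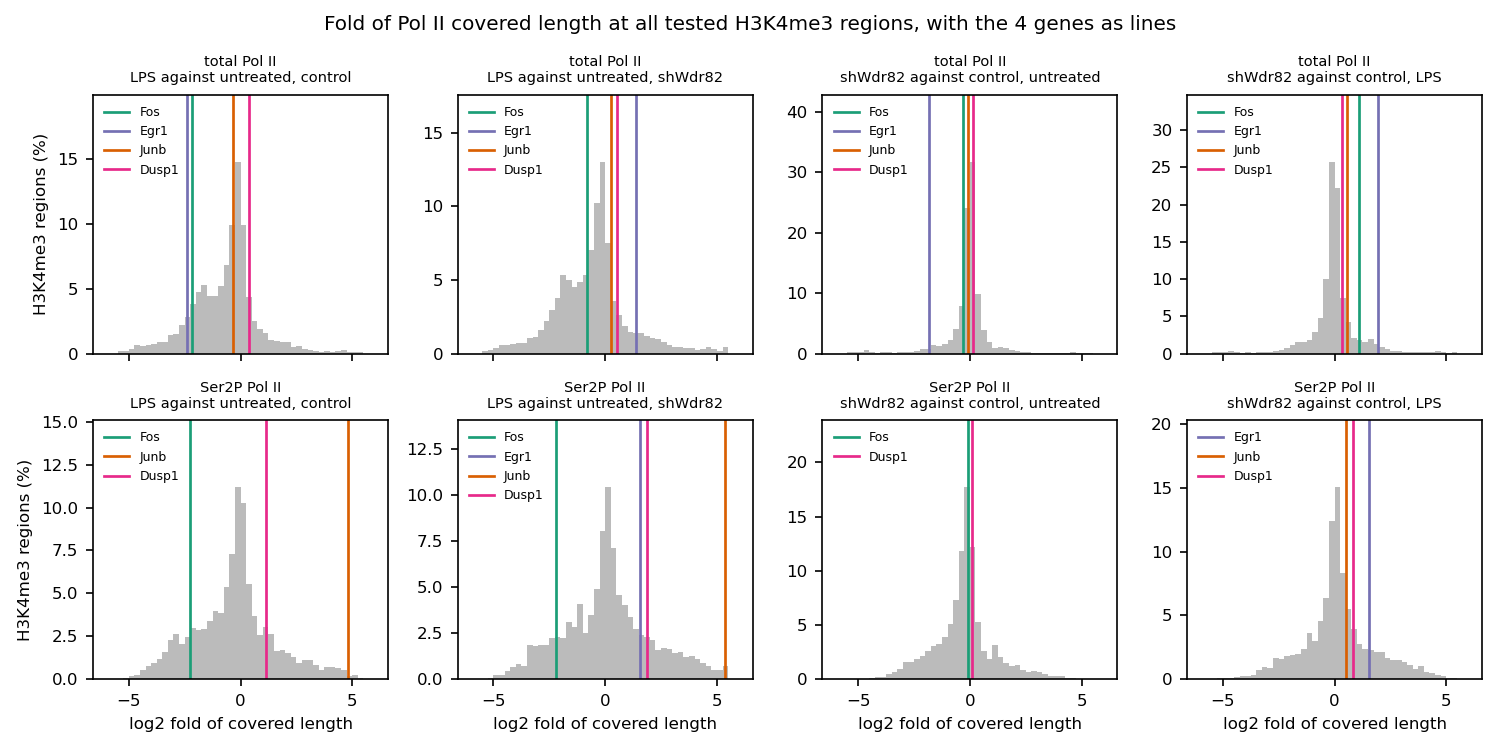
Distribution of the log2 fold of Pol II covered length over all tested H3K4me3 regions (bars, percent of regions) for each Pol II antibody and contrast, with Fos, Egr1, Junb and Dusp1 as lines. In total Pol II for shWdr82 against control after LPS the 4 lines lie between 0.32 and 1.95, and the median of all regions is -0.02.

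For the histone marks the background counts regions called in either direction, unless a direction is named. None of the 4 genes was called for H3K4me3 with 500 bp added. The backgrounds were 15.8% and 13.1% for LPS against untreated in control and shWdr82 cells, and 19.3% and 17.3% for shWdr82 against control untreated and after LPS. The covered length at Junb was 11330 bp in empty vector untreated, 10901 bp in empty vector LPS, 9423 bp in shWdr82 untreated and 9211 bp in shWdr82 LPS cells. At Fos it was 5832, 4772, 4655 and 3715 bp in the same order. At Dusp1 it was 4540, 3895, 2861 and 4083 bp, and at Egr1 2630, 3949, 2513 and 3454 bp. Both shWdr82 values lay below both empty vector values at Junb and Fos, and not at Dusp1 or Egr1. The share of all regions with this order was not computed. For shWdr82 against control, 29.3% of tested regions had a fold at most that of Fos untreated, and 10.7% after LPS. For Junb these shares were 34.5% and 13.9%. For Dusp1 they were 12.3% and 55.8%, and its untreated log2 fold of -0.58 was the nearest to a call. With 100 bp added Dusp1 was called shorter in that contrast (log2 fold -0.65). The Junb length also holds separate H3K4me3 regions, from -9.6 to -7.0 kb and from 6.7 to 8.8 kb. The Fos promoter peak itself reached to 2.6 and 2.4 kb in empty vector cells, untreated and with LPS, and to 1.3 and 1.1 kb in shWdr82 cells. At Junb the promoter peak was broken on its higher side in both shWdr82 lists, with a further peak of 968 bp (untreated) and 1352 bp (LPS) beyond the gap. The empty vector LPS list had a single peak of 6527 bp there, and the empty vector untreated list a peak of 5916 bp with a peak of 976 bp at its lower end. At Egr1 the length was greater with LPS than without in both vectors.

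H3K27ac covered most of the DNA around Dusp1 and Junb in all 4 of its libraries. At Dusp1 it covered 19523 bp in empty vector untreated, 19969 bp in empty vector LPS, 19439 bp in shWdr82 untreated and 19940 bp in shWdr82 LPS cells, close to the limit of the measure, so that none could be called longer. Over the whole Dusp1 window it covered 24.5, 37.4, 24.9 and 33.9 kb in these libraries, so both LPS lists had more. Junb had between 15731 and 17711 bp, and the measure allows it folds of at most 1.14 to 1.26, so it could not be called longer either. At Fos H3K27ac covered 10030, 7051, 9100 and 6273 bp in the same order of libraries, shorter with LPS in both vectors but by less than the fold for a call. With a score of at least 100 the empty vector contrast was called shorter (log2 fold -1.14, against -0.48). At Egr1 it covered 5716, 7102, 6081 and 3844 bp, and the shWdr82 LPS value was the lowest. Its peak on the Egr1 promoter spanned 776 bp there, against 2897 bp in empty vector LPS cells. Egr1 was called shorter for LPS against untreated in shWdr82 cells (1.51-fold) and for shWdr82 against control after LPS (1.75-fold), the only H3K27ac calls among the 4 genes. The backgrounds were 39.5% and 39.6% for LPS in control and shWdr82 cells, and 9.70% and 13.8% for shWdr82 against control untreated and after LPS. In the direction of the Egr1 calls, 24.1% of regions were shorter with LPS in shWdr82 cells and 9.36% were shorter in shWdr82 than in control cells after LPS.

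H3K4me1 flanked the promoters and gave 0 calls among the 4 genes, with backgrounds of 22.0% and 26.4% for LPS in control and shWdr82 cells and of 33.2% and 29.7% for shWdr82 against control untreated and after LPS. Dusp1 had between 17652 and 19077 bp, Junb between 9141 and 12350 bp and Egr1 between 6708 and 8161 bp. The measure allows Dusp1 folds of at most 1.08 to 1.13 here, so Dusp1 could not be called longer. At Fos the lengths were 11089 bp in scrambled untreated, 10984 bp in scrambled LPS, 8055 bp in shWdr82 untreated and 8562 bp in shWdr82 LPS cells. Within 5000 bp on either side Fos was called shorter in shWdr82 than in scrambled cells. The log2 folds there were -0.89 untreated and -0.67 after LPS, against -0.44 and -0.34 within 10000 bp. The share of all regions called within 5000 bp is not given here. An H3K4me1 region on the higher side of the Fos promoter, chr12:86815584-86818598 from 0.3 to 3.3 kb, was held by both scrambled lists and by neither shWdr82 list. It was the only one of 72 merged regions touching the 4 windows that both control lists held alone, and both shWdr82 lists alone held 0. The genome-wide share of H3K4me1 regions held this way was not computed. H3K4me1 was called shorter in shWdr82 than in scrambled cells at 23.9% of tested regions untreated and at 21.4% after LPS. The Fos region overlaps the stretch from 1.3 to 2.4 kb that H3K4me3 peaks covered in both empty vector lists and in neither shWdr82 list. The 2 marks had different controls, and a link between them was not tested.

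Within 10 kb, H3K36me3 lay mainly on 1 side of each promoter's middle, the higher side for Fos and Egr1 and the lower side for Junb and Dusp1. At Fos it covered 4760 bp in scrambled untreated, 3243 bp in scrambled LPS, 2880 bp in shWdr82 untreated and 3871 bp in shWdr82 LPS cells. At Dusp1 it covered 4127, 4334, 3895 and 4078 bp, an even length across libraries. At Junb the lengths were 3913, 3741, 3539 and 0 bp. They came from a peak between -7.6 and -3.6 kb that did not overlap the Junb promoter region in any library. Its far end overlapped a separate H3K4me3 region, from -9.6 to -7.0 kb, and the gene it belongs to was not assigned. The Junb calls below concern this peak. It was weak in the lists that held it, with scores of 196.88, 154.95 and 50.82 above a lowest score of about 50. Its absence from the shWdr82 LPS list is therefore close to the limit of calling. For LPS against untreated in scrambled cells 1 gene was called (Egr1, longer), where 16.7% of regions were called in either direction and 5.02% were longer. In shWdr82 cells 2 were called (Egr1 longer and Junb shorter), where 14.7% were called in either direction, 6.53% longer and 8.18% shorter. For shWdr82 against scrambled in untreated cells 1 was called (Fos, 1.56-fold shorter), where 19.7% were called in either direction and 12.8% were shorter. After LPS 1 was called (Junb, shorter), where 20.4% were called in either direction and 10.7% were shorter. With a score of at least 100, and with equal numbers of peaks per list, the Junb log2 fold for LPS in shWdr82 cells was 0.00 and Junb was instead called shorter for shWdr82 against scrambled in untreated cells (-3.14).

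**Figure D4:**
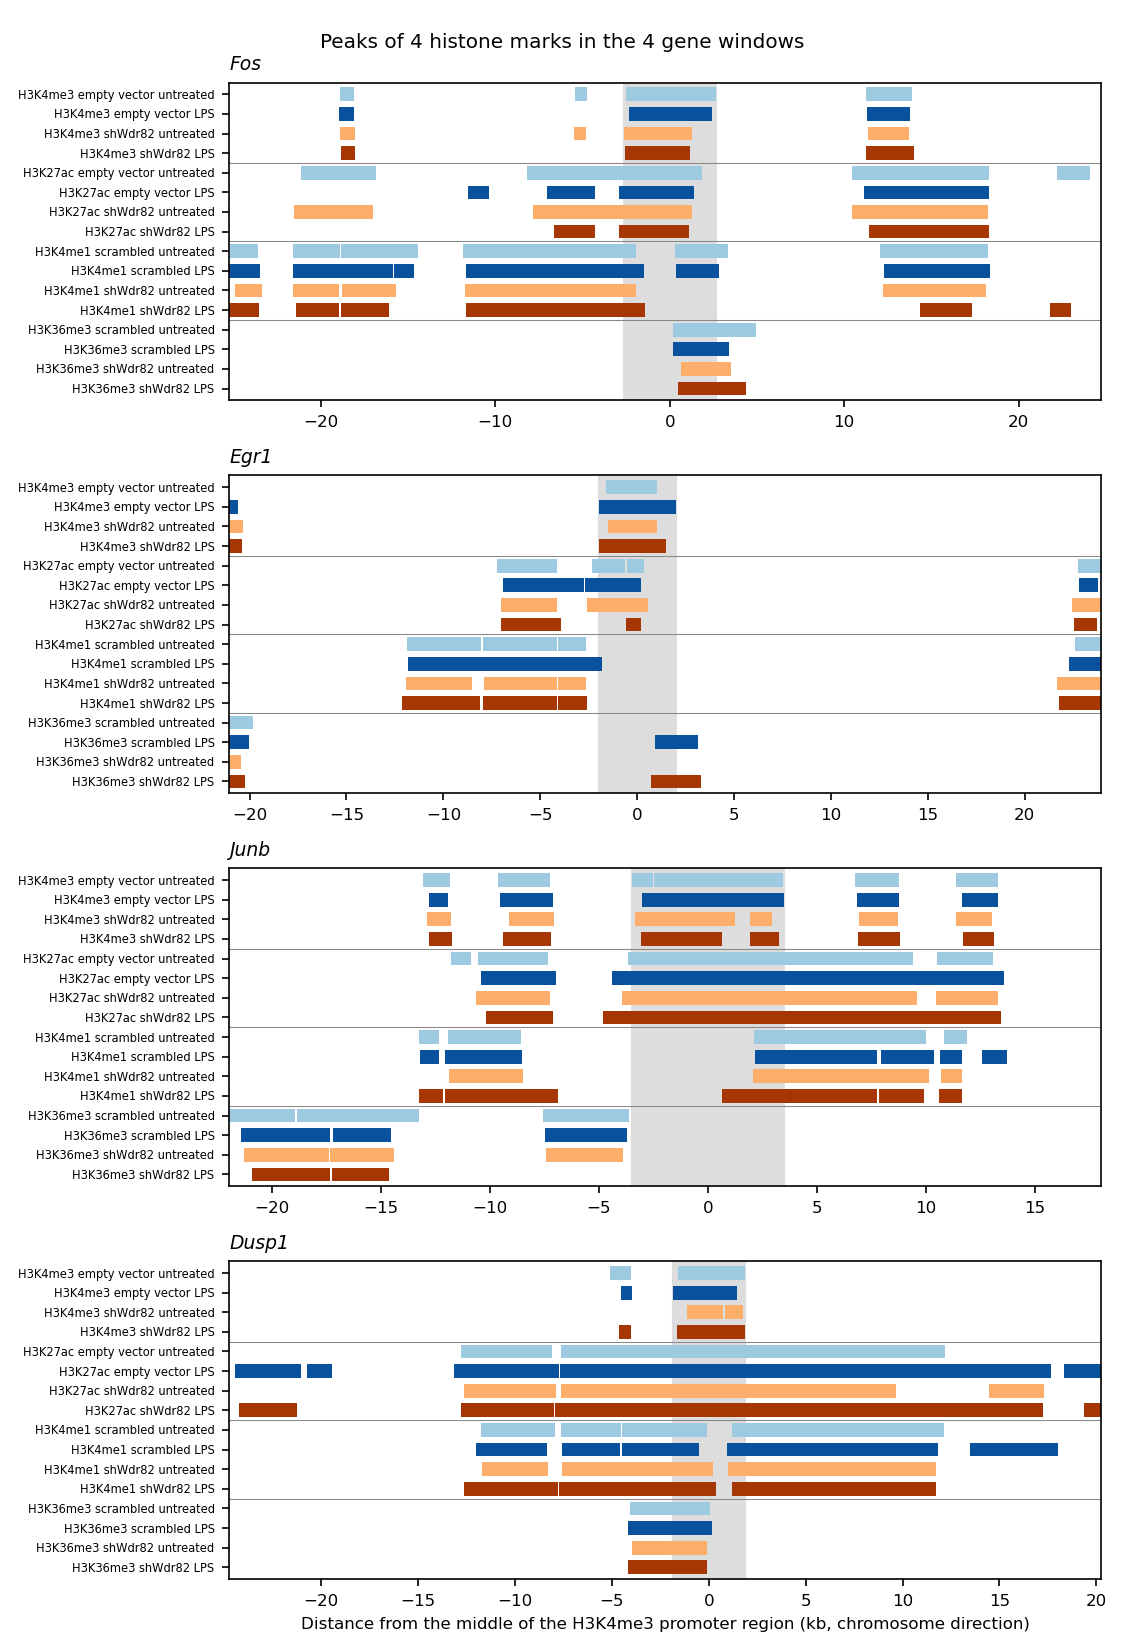
H3K4me3, H3K27ac, H3K4me1 and H3K36me3 peaks of each of the 16 histone libraries (rows, coloured by vector and treatment) at Fos, Egr1, Junb and Dusp1, by distance from the middle of the H3K4me3 promoter region in kb, with that region as a grey band. Egr1 has an H3K36me3 peak next to its promoter in both LPS rows alone, and the H3K4me1 region from 0.3 to 3.3 kb at Fos is drawn in both scrambled rows alone.

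Across the 6 antibodies the peaks in the 4 windows merged into 72 regions, of which 42 were held by all 4 libraries of their antibody and 30 by fewer. Of the 30, 15 were held by 1 library, 5 by both untreated libraries alone, 3 by both LPS libraries alone and 0 by a crossed pair. Pol II made up many of the partial regions, with 7 of 12 for total Pol II and 7 of 9 for Ser2P, against 3 of 13 for H3K4me3, 6 of 15 for H3K27ac, 5 of 17 for H3K4me1 and 2 of 6 for H3K36me3. The same shares over the whole genome were not computed. The Ser2P regions held by a single library numbered 3 and all were in the shWdr82 LPS list, at Dusp1, Egr1 and Junb. Genome-wide, peaks in no other Ser2P list made up 35.4% of that list. The shares were 32.0% in scrambled untreated, 24.6% in scrambled LPS and 32.2% in shWdr82 untreated cells. The total Pol II regions held by a single library numbered 5 and all were in the scrambled untreated list, which was the longest of the 4 total Pol II lists. Those at Fos from -6.0 to -4.5 kb and at Egr1 from -6.9 to -4.3 kb overlapped H3K27ac and H3K4me1 peaks in 4 of 4 libraries.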

How the data were processed

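ChIP-seq peak lists of 24 libraries, 1 per group, were used on the mm9 build. Bowtie 0.12.7 and MACS 1.4 are named in the submitters' processing notes. The score in column 5 of the deposited lists is the authors' own peak score, and it was used only to describe, rank or filter peaks within 1 list. The start and end positions in the deposited lists were set by the authors' peak calling in each library, and other processing is not given in the sources used here. Depth and input are unknown, so no interval or depth correction could be given. Positions are counted from 1. No peaks overlapped each other within a list.

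From these positions, peaks in the 4 windows, covered length within 10000 bp of the promoter's middle, and folds with 500 bp added were computed (Python 3.11.15, numpy 2.4.6, matplotlib 3.10.9) at all 21626 merged H3K4me3 regions. Overlap means at least 1 bp. The calculation was tested on simulated peaks. A fold of 1.5 was called. Windows of neighbouring regions can overlap. Alternatives were a score of at least 100, equal numbers of peaks per list, 5000 and 20000 bp, 100 bp added, a fold of 2, and other overlap rules. All 4 genes are named with every library. The genes, windows and lists were chosen with earlier results of these data known. Sequences come from RefSeq (GRCm38.p6), and no coordinates were converted.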

Additional observations from a re-analysis of the deposited data

Results flagged for a closer look

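Egr1 total Pol II moved in opposite directions in the 2 vectors and in the 2 treatments. The log2 fold of its covered length for LPS against untreated was -2.40 in scrambled and 1.38 in shWdr82 cells. The log2 fold for shWdr82 against scrambled was -1.83 untreated and 1.95 after LPS. These are the same 4 libraries read along both factors, with 1 library in each, and the difference was not tested.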

How the results depend on the processing

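No paired analysis was possible because each group has 1 library, and for the same reason no library could be left out. No fold changed direction past the threshold under any alternative run. Of 96 folds (4 genes, 6 antibodies, 4 contrasts), 88 kept their call with a score of at least 100, 94 with equal numbers of peaks per list, 93 at 5000 bp, 89 at 20000 bp, 95 with 100 bp added and 91 at a fold of 2. The cause of the changes below was not tested beyond the settings themselves. Where a count below has no percentage, the share of all regions called under that setting is not given here. Such a count cannot be set against a background. With a score of at least 100, total Pol II longer with LPS in shWdr82 cells became 2 genes, and Ser2P shorter with LPS in shWdr82 cells became 0, since the weak Fos peak left its list. Ser2P shorter in shWdr82 untreated cells became 1 gene (31.0% of all regions). Ser2P longer in shWdr82 cells after LPS became 1 (30.5% of all regions), without the weak Egr1 peak. The loss of that peak also took Egr1 out of the genes longer with LPS in shWdr82 cells. At 5000 bp and at a fold of 2 Ser2P longer in shWdr82 cells after LPS was also 1, but there Dusp1 was lost and Egr1 kept its call. The Junb H3K36me3 call for LPS in shWdr82 cells was lost with a score of at least 100 and with equal numbers of peaks, and Junb was then called shorter for shWdr82 in untreated cells. At a fold of 2 the Fos H3K36me3 call and both Egr1 H3K27ac calls were lost. With 100 bp added Dusp1 H3K4me3 was called shorter in shWdr82 than in control cells untreated. Fos H3K27ac was called shorter with LPS in control cells with a score of at least 100. At 5000 bp Fos H3K4me1 was called shorter in shWdr82 than in scrambled cells, untreated and after LPS. At 20000 bp, where the length is less limited, total Pol II longer with LPS in shWdr82 cells became 2, total Pol II longer in shWdr82 cells after LPS became 4 (16.2% of all regions), Ser2P shorter with LPS in scrambled cells became 2, and Ser2P shorter in shWdr82 untreated cells became 1. Junb Ser2P was then called longer in shWdr82 cells after LPS, and the Egr1 Ser2P call for LPS in shWdr82 cells was lost (log2 fold 0.58). At a fold of 2, total Pol II shorter with LPS in shWdr82 cells became 0. The number of peaks in the windows was 255 when a peak's middle had to lie inside, against 266, and the regions held by fewer libraries numbered 30 and 28 against 30. Unknown depth limits every value: a weak peak can miss a list without its signal being absent.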
